A study of Homo sapiens with 28 samples.

Results

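In the bone marrow of 5 DKOITD mice, H3K27ac and H3K27me3 were compared within each animal, gene by gene. These are 10 of the 28 samples of the series: the H3K27ac and the H3K27me3 library of DKOITD48, DKOITD52, DKOITD53e, DKOITD83 and DKOITD185. Each of 21883 protein-coding genes was put in a state in each mouse: H3K27ac only, H3K27me3 only, both at the same place, both apart, or neither. DKOITD mice were C57BL/6 animals that carried Runx1(fl/fl) together with Ezh2(fl/fl), Cre on 1 copy of Rag1, written Rag1(Cre/+), and the allele Flt3(ITD/+). Their marrow was used whole. The 3 WT mice, with 6 libraries, served only for comparison. They were C57BL/6 animals with the same floxed alleles, Runx1(fl/fl) and Ezh2(fl/fl), but Flt3(+/+) and, without Cre, Rag1(+/+). From their marrow, cells that express Kit had been captured with beads against CD117. Genotype and cell preparation therefore cannot be told apart in any comparison with WT. The series title places the study in lympho-myeloid leukaemia of early thymic progenitors, but no sample label used here gives an age, a disease stage or a share of leukaemic cells. Cre from the Rag1 locus acts in cells that have switched Rag1 on, so other cells of whole marrow keep the floxed alleles.

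Acetylation and trimethylation compete for the same lysine of histone H3, and a single histone tail cannot carry both there. H3K27ac is written by EP300 and CREBBP at active promoters and enhancers. H3K27me3 is written by Polycomb repressive complex 2, whose catalytic subunits are EZH2 and EZH1, and it covers silenced genes, above all developmental regulators. Both marks at one locus can come from different cells, from both alleles of one cell or from neighbouring nucleosomes, and in chromatin of whole marrow these cannot be told apart. A locus in few of the cells and a weak locus in many cells cannot be told apart either.

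The engineered genes carried the marks as follows, which cannot test the genotype labels. In mm10 coordinates Ezh2 lies at 47530274 to 47595270 on chromosome 6 and Runx1 at 92601466 to 92826074 on chromosome 16. Both genes had H3K27ac but no H3K27me3 in all 5 DKOITD and all 3 WT mice. Ezh2 had 1515, 1830, 1518, 1519 and 1674 bp of H3K27ac in the better covered window at a gene end in DKOITD48, DKOITD52, DKOITD53e, DKOITD83 and DKOITD185, against 1735, 1655 and 1682 bp in WT1, WT2 and WT3. Runx1 had 1552, 1454, 211, 618 and 1852 bp in the DKOITD mice in the same order, against 1916, 1642 and 1719 bp in WT mice. The ranges overlapped at Ezh2 and also at Runx1, where DKOITD53e lay lowest. Rag1, which carries the Cre, had neither mark in any mouse. Loss of a floxed exon cannot be read from peaks at gene ends. Flt3, the cytokine receptor that carries the internal tandem duplication, had H3K27ac only in 4 DKOITD mice and both marks at the same place in DKOITD52, against both at the same place in WT1 and WT2 and H3K27me3 only in WT3.

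The DKOITD libraries held 9435546 to 11458360 fragments for H3K27ac and 3343831 to 6411696 for H3K27me3, so every H3K27ac library was the deeper one of its mouse. H3K27me3 peaks numbered 2665 in DKOITD48, 15529 in DKOITD52, 1891 in DKOITD53e, 3303 in DKOITD83 and 25557 in DKOITD185. H3K27ac peaks numbered 13405, 17039, 8825, 9112 and 19532 in the same mice. DKOITD52 and DKOITD185 thus stood apart from the other 3 DKOITD mice in H3K27me3, and fragment number did not follow this order: DKOITD53e had more H3K27me3 fragments (5492339) than DKOITD52 (4752231). Absence of a peak is absence of a call at this enrichment, not absence of the mark. State shares, common counts, territory and overlap were also computed without the 3 mice of smaller lists; the values of gene lists and single genes are given mouse by mouse or over all 5.

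The first question was how the marks were laid out. H3K27ac and H3K27me3 peaks covered 14.3 ± 7.56 Mb and 16.9 ± 17.3 Mb of genome in DKOITD marrow (SD, n = 5 each), with an exact two-sided permutation p of 0.794 over the libraries and 0.688 with the mouse as block. The difference, H3K27ac minus H3K27me3, was -2.53 Mb, and -13.3 Mb in DKOITD52 and DKOITD185 alone. They differed in shape. The upper decile of peak length was 1857 ± 412 bp for H3K27ac and 3856 ± 519 bp for H3K27me3 (SD, n = 5 each), without overlap between the marks (exact two-sided permutation p = 0.00794, the smallest this design allows). Peaks over 5 kb held 2.85 ± 2.05% of H3K27ac territory and 35.7 ± 6.29% of H3K27me3 territory (SD, n = 5 each), also without overlap and with the same exact p of 0.00794. Within the 5 mice as pairs the smallest possible p is 0.0625, so these differences cannot pass 0.05 with the mouse as block. Gene-end windows were touched by 60.2 ± 12.1% of H3K27ac peaks and 42.3 ± 17.3% of H3K27me3 peaks (SD, n = 5 each), higher for H3K27ac in 5 of 5 mice (exact permutation p = 0.119). All these measures also carry the difference in depth between the marks, whose part was not tested.

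H3K27ac alone was the most frequent marked state of genes in every DKOITD mouse. It was found at 41.0% of genes in DKOITD48, 41.1% in DKOITD52, 33.3% in DKOITD53e, 34.3% in DKOITD83 and 42.1% in DKOITD185, against 41.3%, 38.6% and 39.6% in WT1, WT2 and WT3. A gene counted as marked when peaks covered at least 200 bp of a window reaching 1 kb either side of one of its ends. H3K27me3 alone was found at 6.03%, 16.8%, 4.41%, 7.19% and 17.0% of genes in the DKOITD mice, against 17.1%, 14.1% and 16.6% in WT mice. DKOITD52 and DKOITD185 lay beside the WT mice, and the other 3 lay below all of them. Neither mark was called at 37.7% to 62.2% of genes in DKOITD mice and at 38.4% to 45.9% in WT mice.

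Both marks at the same place were rare. The count was 81 genes in DKOITD48, 344 in DKOITD52, 18 in DKOITD53e, 35 in DKOITD83 and 379 in DKOITD185, against 332, 150 and 296 in WT1, WT2 and WT3. Both marks apart, with no shared base in the windows, were counted at 60, 329, 22, 35 and 324 genes in the DKOITD mice, against 347, 150 and 275 in WT mice. None of the 5 states differed in share between DKOITD and WT marrow beyond the spread between mice. The differences ran from -5.65 percentage points for H3K27me3 only to 8.01 for neither, with exact two-sided permutation p-values of 0.286 to 0.643 (n = 5 and 3). All 5 differences reversed in sign when DKOITD48, DKOITD53e and DKOITD83 were left out together.

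**Figure D1:**
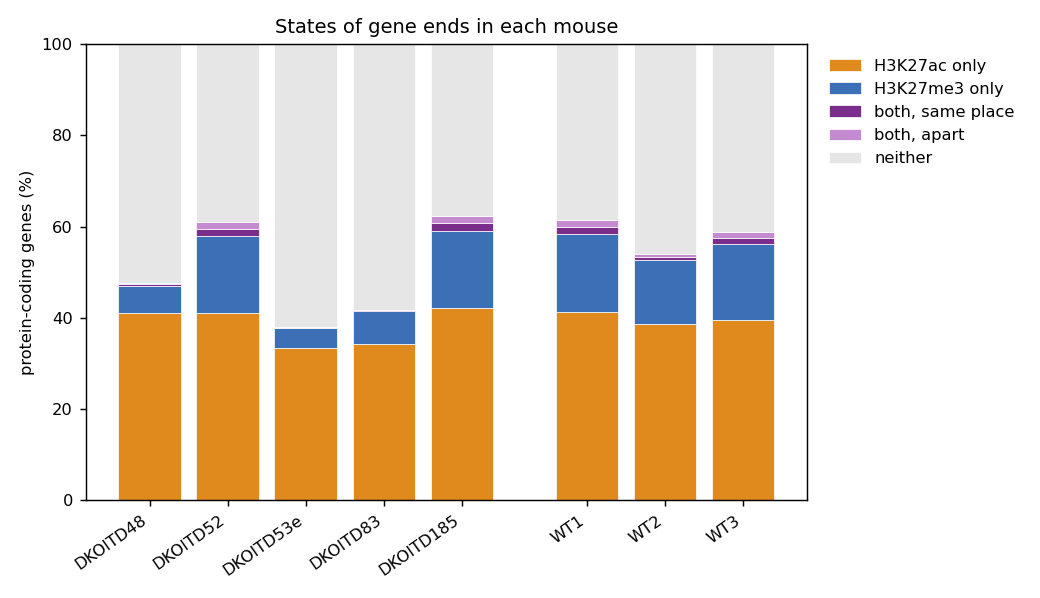
Share of 21883 protein-coding genes (%) in each state, one bar per mouse, 5 DKOITD mice on the left and 3 WT mice on the right. H3K27ac only takes 33.3% to 42.1% in DKOITD mice, while H3K27me3 only is 16.8% and 17.0% in DKOITD52 and DKOITD185 and 4.41% to 7.19% in the other 3 DKOITD mice.

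H3K27me3 was called less often at genes with H3K27ac than at genes without it in all 8 mice. H3K27me3 was called at 1.55%, 6.97%, 0.547%, 0.924% and 7.09% of genes with H3K27ac in DKOITD48, DKOITD52, DKOITD53e, DKOITD83 and DKOITD185. Among genes without H3K27ac it was called at 10.3%, 30.0%, 6.63%, 11% and 31.2% in the same mice. The share was lower at genes with H3K27ac in 5 of 5 DKOITD mice, and in WT mice it was 3.43% to 6.98% against 23.6% to 30.8%. Genes with both marks numbered 0.119 to 0.351 times the product of the single shares in DKOITD mice (mean 0.235 ± 0.115, SD, n = 5), against 0.221 to 0.345 times in WT mice (mean 0.296 ± 0.0661, SD, n = 3). The exact two-sided permutation p for the difference was 0.571. Genes are not replicates, so these ratios are a description.

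Shared bases were few and partly sat in a single region. Peaks of both marks covered 102 kb in common in DKOITD48, 268 kb in DKOITD52, 60.3 kb in DKOITD53e, 63.9 kb in DKOITD83 and 313 kb in DKOITD185. This was 0.78% to 1.31% of H3K27ac territory and 0.773% to 1.96% of H3K27me3 territory. Shared length was set against the product of the territories over the effective genome size used in peak calling, 1.87 Gb. It was 2.8, 0.811, 5.06, 3.06 and 0.608 times this product in the DKOITD mice. The shared length thus lay below the product in DKOITD52 and DKOITD185 and above it in the other 3. A longer genome length would raise every such ratio, so below and above hold for this length only. The longest shared stretch, mm10 chromosome 9, 3000032 to 3038242, lay within 1 kb of no gene and was under both marks in all 8 mice. It made up 37.5%, 14.3%, 63.4%, 59.8% and 11.8% of the shared length in the DKOITD mice. The authors' fold enrichment there was only 1.55 to 1.72 for H3K27ac at a pileup of 376 to 404 fragments in DKOITD mice, so the local background was 224 to 248 fragments where the median peak had 2.23 to 2.58. With peaks of high background (pileup over fold of at least 10) left out, a setting chosen after the data were seen, 56.7, 222, 10.8, 19.5 and 269 kb remained in the DKOITD mice, against 243, 98.4 and 207 kb in WT1, WT2 and WT3. The mean over the DKOITD mice was then 0.934 times the product, in place of 2.47. The gene calls hardly moved, with 6312 in place of 6315 genes common to the 5 mice as H3K27ac only and no change to the H3K27me3 only and same-place counts.

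**Figure D2:**
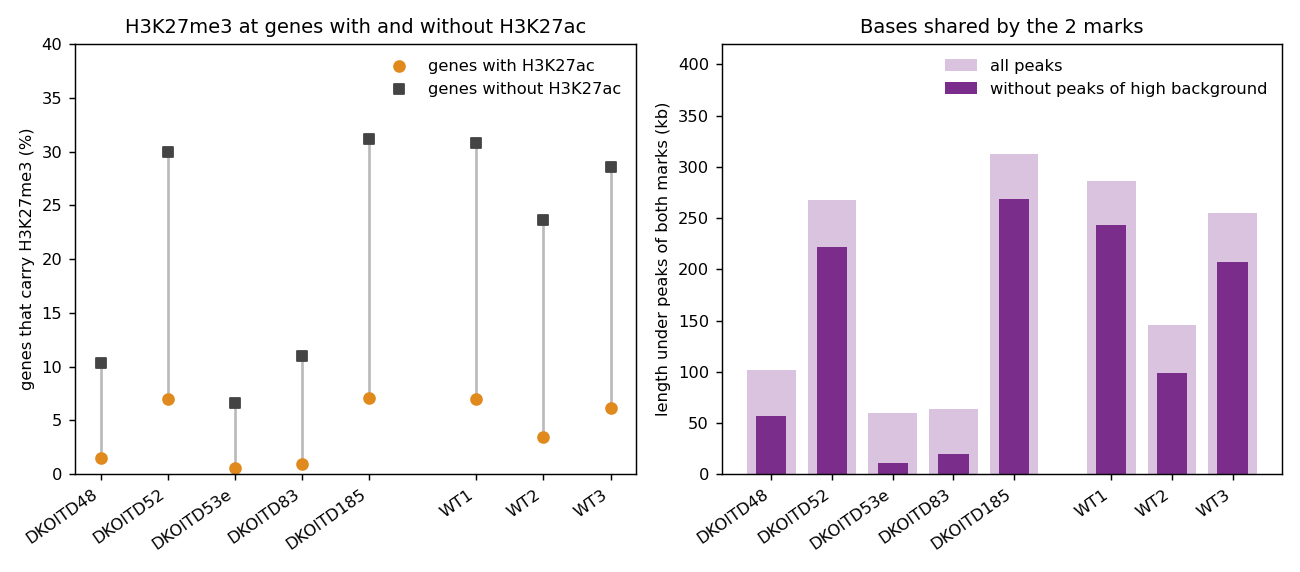
Left, the share of genes (%) that carry H3K27me3 among genes with H3K27ac (circles) and without it (squares) in each mouse. Right, the length (kb) under peaks of both marks, with all peaks (wide bars) and without peaks of high background (narrow bars). In every mouse the circle lies below the square, and DKOITD53e keeps 10.8 of 60.3 kb.

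Where peaks of the marks met, the H3K27ac peak tended to lie low in its library. After peaks of high background were left out, H3K27ac peaks that touched H3K27me3 had a mean fold enrichment percentile of 32.3 ± 11.3, against 50.2 ± 0.0787 for the other H3K27ac peaks of the same mouse (SD, n = 5). They were lower in 5 of 5 DKOITD mice, and the exact sign-flip p of 0.0625 is the smallest that 5 mice allow. Their median length was 690 ± 112 bp, against 829 ± 161 bp for the others, again lower in 5 of 5 mice (exact sign-flip p = 0.0625). H3K27me3 peaks that touched H3K27ac were not uniformly weak or strong: their percentile was higher than that of the rest in 3 mice and lower in 2 (exact sign-flip p = 0.375).

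Calls common to all 5 DKOITD mice covered 14793 genes, and the other 7090 had more than 1 state. H3K27ac only was common to 6315 genes (28.9% of all genes tested), H3K27me3 only to 784 (3.58%), both at the same place to 5 (0.0228%), both apart to 8 (0.0366%) and neither to 7681 (35.1%). Of the genes that were H3K27ac only in at least 1 DKOITD mouse, 62.1% were so in all 5, against 18.5% for H3K27me3 only and 0.88% for both at the same place. Of the 6315 genes, 94.7% were also H3K27ac only in all 3 WT mice, and of the 784 genes, 95.8% were also H3K27me3 only in all 3 WT mice. Over the 3 WT mice, 86 genes (0.393%) had both marks at the same place in all and 91 (0.416%) had both apart in all. In the other direction, 75.4% of the genes H3K27ac only in all WT mice (36.2% of all genes) and 27.6% of those H3K27me3 only in all WT mice (12.5%) had that state in all 5 DKOITD mice.

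The calls of the smaller lists were nested in those of the larger. Genes with H3K27me3 in DKOITD48, DKOITD53e or DKOITD83 also had it in each of DKOITD52 and DKOITD185 in 99.1% to 99.6% of cases, whereas 22.5% to 37.7% held in the reverse direction. For H3K27ac these ranges were 96.0% to 99.4% and 73.2% to 90.6%. Of the 7090 genes with more than 1 state, 1455 genes were H3K27me3 only in DKOITD52 and DKOITD185 and had neither mark in the other 3, while 255 (1.17% of all genes) were H3K27ac only in at least 1 and H3K27me3 only in at least 1 DKOITD mouse. In DKOITD52 and DKOITD185 alone, 8654 genes were H3K27ac only and 3227 H3K27me3 only in both, and 192 genes had both marks at the same place in both. At those 192 genes, DKOITD48, DKOITD53e and DKOITD83 had H3K27ac only in 66.7%, 61.5% and 56.8% of cases and H3K27me3 only in 2.6%, 12% and 6.25%.

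Among genes that were H3K27ac only in all 5 DKOITD mice, the widest acetylation lay at Zfp36, which encodes an RNA-binding protein that speeds decay of cytokine mRNAs (chromosome 7, 28376784 to 28379228). H3K27ac covered 9236, 10001, 8614, 8920 and 10001 bp of the 10001 bp within 5 kb of its better covered end in the DKOITD mice, against 9229, 9058 and 7840 bp in WT mice. The next were Irf2bp2, a corepressor partner of IRF2, Gm46294, a predicted gene, Zfp36l2, a relative of Zfp36, and Junb, an AP-1 transcription factor subunit. Junb had 6907, 6601, 5424, 5362 and 7424 bp in DKOITD mice, against 6667, 4712 and 6612 bp in WT mice, and the ranges overlapped. The list went on with Med29, a Mediator subunit close to Zfp36, so that the same peaks count for both, Pim1, a serine/threonine kinase induced by STAT5, Per1 of the circadian clock, the transcription factor Mef2d and Actb, which encodes beta-actin. Actb varied most visibly, with 6309, 9110, 2154, 2715 and 8110 bp in DKOITD mice. Gm46294 (chromosome 11, 98937263 to 98942246) was the only one of the 10 with H3K27me3 at its ends in WT, where all 3 mice had both marks at the same place: 0 bp of H3K27me3 in each DKOITD mouse, against 1843, 1762 and 2001 bp in WT1, WT2 and WT3. In all, 34 genes (0.155% of all genes) were H3K27ac only in all 5 DKOITD mice and had H3K27me3 in all 3 WT mice.

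The genes that were H3K27me3 only in all 5 mice with the widest trimethylation were all regulators of embryonic patterning: Dlx1, Lbx1, Sp9, Foxc1, Irx5, Lhx1, Olig2, Six2, Uncx and Lmx1b. Dlx1 (chromosome 2, 71528113 to 71533981), a homeobox factor of the forebrain, Lbx1 (chromosome 19, 45232684 to 45236841), a homeobox factor of muscle precursors and spinal cord, and Sp9, a zinc finger factor, had all 10001 bp within 5 kb of an end covered in each of the 8 mice. They had no H3K27ac there in any mouse. Irx5 and Lhx1, both homeobox genes, did have H3K27ac within 5 kb, although none in the 1 kb windows: 438 to 891 bp at Irx5 and 361 to 821 bp at Lhx1 in DKOITD mice, against 0 to 639 bp and 521 to 851 bp in WT mice. Conversely, 7 genes (0.032%) were H3K27me3 only in all 5 DKOITD mice and had H3K27ac in all 3 WT mice: Serpine2, Dmpk, Six5, Sptb, Amigo2, Pced1b and Foxd4. Those 7 were listed after their values were seen. None of these 7 was H3K27ac only in all 3 WT mice.

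Both marks at the same place in every DKOITD mouse were found at Igf2bp3, Map7, Dusp8, Whrn and Atf3. Igf2bp3 (chromosome 6, 49085218 to 49215469) encodes an RNA-binding protein active in fetal tissue. Its shared stretch within the 1 kb windows was 1079, 841, 910, 962 and 1418 bp in the DKOITD mice, against 1598, 0 and 0 bp in WT1, WT2 and WT3. The H3K27ac peak lay within or across the edge of a longer H3K27me3 peak in each DKOITD mouse, and WT2 and WT3 had H3K27me3 only. Dusp8 (chromosome 7, 142079487 to 142095907) encodes a phosphatase that inactivates stress-activated MAP kinases. It was the only one of the 5 with both marks at the same place in all 8 mice: 666, 481, 631, 734 and 650 bp were shared in the DKOITD mice, against 437, 360 and 574 bp in WT mice. These values count only bases inside the window, whose edge cut the H3K27ac peak in every mouse but DKOITD83. Uncut, that H3K27ac peak lay wholly within H3K27me3 in all 8 mice. It was 694, 519, 660, 734 and 710 bp long in the DKOITD mice, against 616, 469 and 775 bp in WT mice, so the ranges overlapped.

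Atf3 (chromosome 1, 191170296 to 191183333) encodes a bZIP transcription factor induced by stress. It had 1516, 1691, 1344, 1268 and 1918 bp of H3K27ac in DKOITD mice, against 223, 0 and 0 bp in WT mice, and 729, 2001, 691, 915 and 753 bp of H3K27me3, against 2001 bp in each WT mouse. The H3K27ac values did not overlap between DKOITD and WT mice. The shared stretch was 359, 1691, 100, 313 and 719 bp in DKOITD mice, and in all but DKOITD52 the H3K27me3 peak began inside the H3K27ac peak, outside the gene, and ran away from it. Map7 (chromosome 10, 20148920 to 20281590) encodes a microtubule-associated protein and shared 868, 507, 712, 570 and 726 bp in DKOITD mice, against 1015, 0 and 1223 bp in WT mice. Whrn (chromosome 4, 63414908 to 63496083) encodes whirlin, a scaffold of sensory hair cells, and shared 90, 1123, 113, 538 and 1007 bp in DKOITD mice and none in WT mice. At Whrn the WT mice had H3K27me3 only, and DKOITD48 and DKOITD53e had the shortest overlaps.

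**Figure D3:**
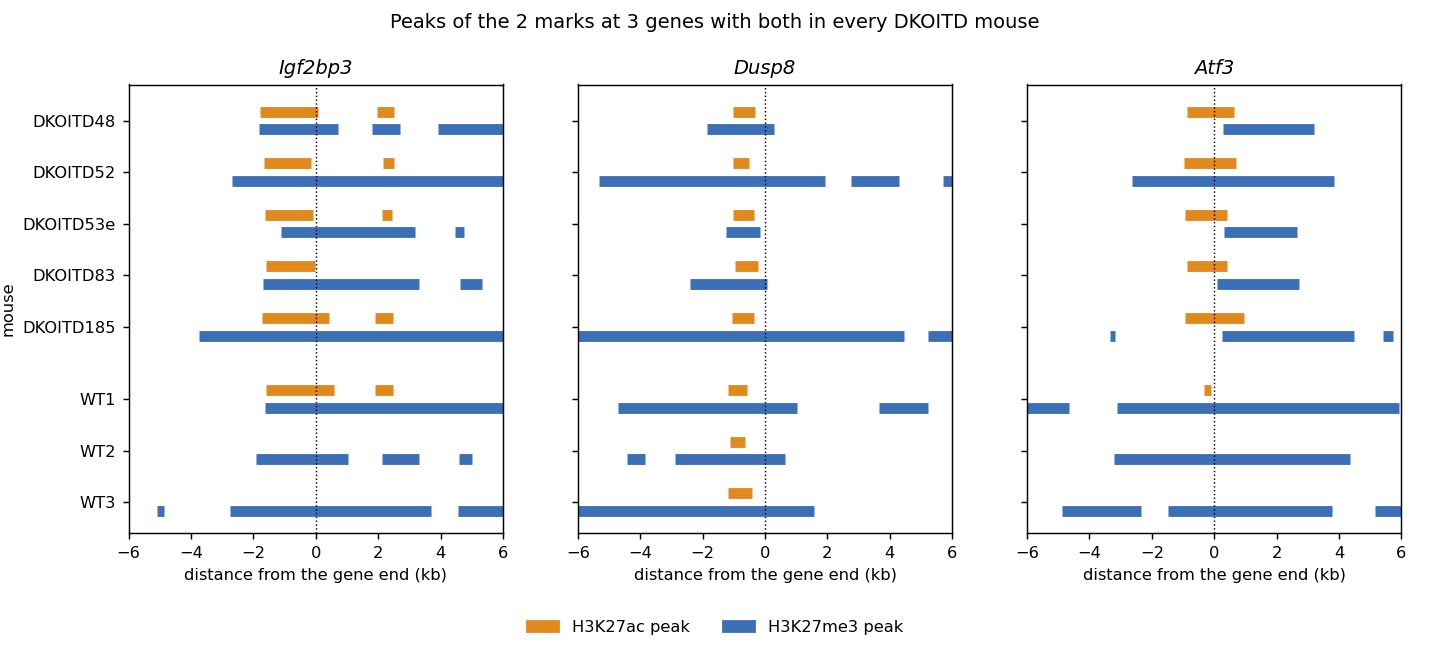
Peaks of H3K27ac (orange) and H3K27me3 (blue) within 6 kb of the end of higher coordinate (dotted line, distance in kb) of Igf2bp3, Dusp8 and Atf3, one row per mouse, 5 DKOITD mice above 3 WT mice. At Dusp8 a short H3K27ac peak lies within H3K27me3 in all 8 mice, and at Atf3 the DKOITD peaks of the marks overlap by 100 to 1691 bp.

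Another 6 genes had both marks at the same place in 4 of the 5 mice, making 11 in all (0.0503% of all genes, against 2.6% in at least 1 mouse). They were Epha2, an ephrin receptor kinase, Zfp532, a zinc finger gene, Sulf2, a sulfatase of heparan sulfate, Agpat3, an acyltransferase of phospholipid synthesis, Trim47, of the TRIM family of ubiquitin ligases, and Foxo6, a forkhead factor. Sulf2 shares a window with Ncoa3, so a peak there counts for both genes. Epha2 shared 838, 813, 0, 296 and 905 bp in the DKOITD mice, against 325, 0 and 0 bp in WT mice. The mouse without both was DKOITD53e for Epha2, Sulf2, Trim47 and Foxo6, DKOITD52 for Zfp532 and DKOITD48 for Agpat3. Among the 11 genes, WT mice had H3K27me3 only in all 3 at Whrn, Sulf2, Trim47 and Foxo6, and both at the same place in all 3 at Dusp8 and Agpat3. These calls rest on weak peaks: with peaks of −log10 q of at least 5 none of the 11 kept the state in 4 mice, and at equal peak numbers Igf2bp3, Dusp8 and Atf3 did.

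Of the 5 longest stretches under both marks in at least 3 DKOITD mice, 2 were of high background and within 1 kb of no gene: the region on chromosome 9 above and 3.89 kb on chromosome 14, 19415753 to 19419645, shared in all 8 mice. Of the others the first, 4.2 kb on chromosome 12, 25096744 to 25100947, lay beside Id2, an inhibitor of E-protein transcription factors. It held 726, 1647, 0, 0 and 4204 shared bp in DKOITD48, DKOITD52, DKOITD53e, DKOITD83 and DKOITD185 and none in WT mice. The second, 3.91 kb on chromosome 10, 95413792 to 95417704, lay at Socs2, a feedback inhibitor of cytokine signalling, and held 2401, 2979, 0, 162 and 3913 bp in DKOITD mice and none in WT mice. The third, 3.34 kb on chromosome 7, 144938274 to 144941614, lay at Ccnd1, which encodes cyclin D1, and held 0, 2035, 271, 0 and 2545 bp in DKOITD mice and none in WT mice. At all 3, DKOITD185 had the longest shared stretch, and the WT mice had H3K27me3 in the gene windows but no shared base. The next in length, 2.37 kb on chromosome 4, 117494706 to 117497070, at Rnf220, held 1764, 1103, 0, 0 and 1748 bp in DKOITD mice, against 702, 0 and 253 bp in WT mice. After it, a region of 2.34 kb on chromosome 4, 8689848 to 8692187, at Chd7, a chromatin remodeller, was shared in all 8 mice, with 895, 1976, 488, 771 and 2340 bp in DKOITD mice, against 2265, 709 and 520 bp in WT mice. Over the genome 861 regions were shared in at least 1 DKOITD mouse, and 12 in all 5, of which 5 were of high background.

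Of genes with both marks apart, 52.6% to 72.7% per DKOITD mouse had the marks at opposite ends of the gene. Among genes with both at the same place the share was 0% to 8.43%. That state requires a shared base within a window, so its low share follows largely from the definition. The 8 genes apart in all 5 mice were Mmp24, Sypl2, Isoc2b, Zfp580, Ccdc106, Fxyd7, Ldah and 2700049A03Rik, and all 8 were also apart in all 3 WT mice. Each of the 8 shares a window with a neighbouring gene, such as Ldah with Gdf7, so the marks may belong to different genes. They were named after their values were seen. Ldah, for example, had 614, 829, 638, 481 and 816 bp of H3K27ac at one place and 2001 bp of H3K27me3 at another in the DKOITD mice, against 948, 653 and 908 bp and 2001 bp in WT mice.

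A small set of 15 genes (0.0685% of all genes) was H3K27ac only in at least 2 DKOITD mice and H3K27me3 only in at least 2. The 10 with most mice in either state, ties by coverage, were Lysmd2, Elavl4, Pfn2, Yes1, Cdh2, Tbc1d24, Mfsd13b, Cdr2, Cystm1 and Abca5. Elavl4 (chromosome 4, 110203737 to 110351939), an RNA-binding protein of neurons, had 795, 0, 468, 420 and 0 bp of H3K27ac and 0, 1714, 0, 0 and 1371 bp of H3K27me3 in DKOITD48, DKOITD52, DKOITD53e, DKOITD83 and DKOITD185. Yes1 (chromosome 5, 32611171 to 32687066), a SRC family kinase, had 757, 0, 695, 0 and 711 bp of H3K27ac and 0, 2001, 0, 1020 and 2001 bp of H3K27me3. Pfn2, which encodes the actin-binding profilin 2, had 284, 0, 236, 0 and 0 bp of H3K27ac and 0, 1571, 0, 504 and 1769 bp of H3K27me3. In all 10, DKOITD48 had H3K27ac only and DKOITD52 H3K27me3 only, and 7 of the 10 were H3K27me3 only in all 3 WT mice. Cdh2, which encodes N-cadherin, had 726 and 530 bp of H3K27ac in DKOITD48 and DKOITD53e and 2001 bp of H3K27me3 in DKOITD52 and DKOITD185. Mfsd13b and Cdr2 share a window and count as 1 locus. These acetylation peaks were short, and with a minimum of 500 bp 3 genes of this kind were left in place of 15. Without DKOITD52 only 1 was left, although leaving out any mouse cannot raise this count.

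**Figure D4:**
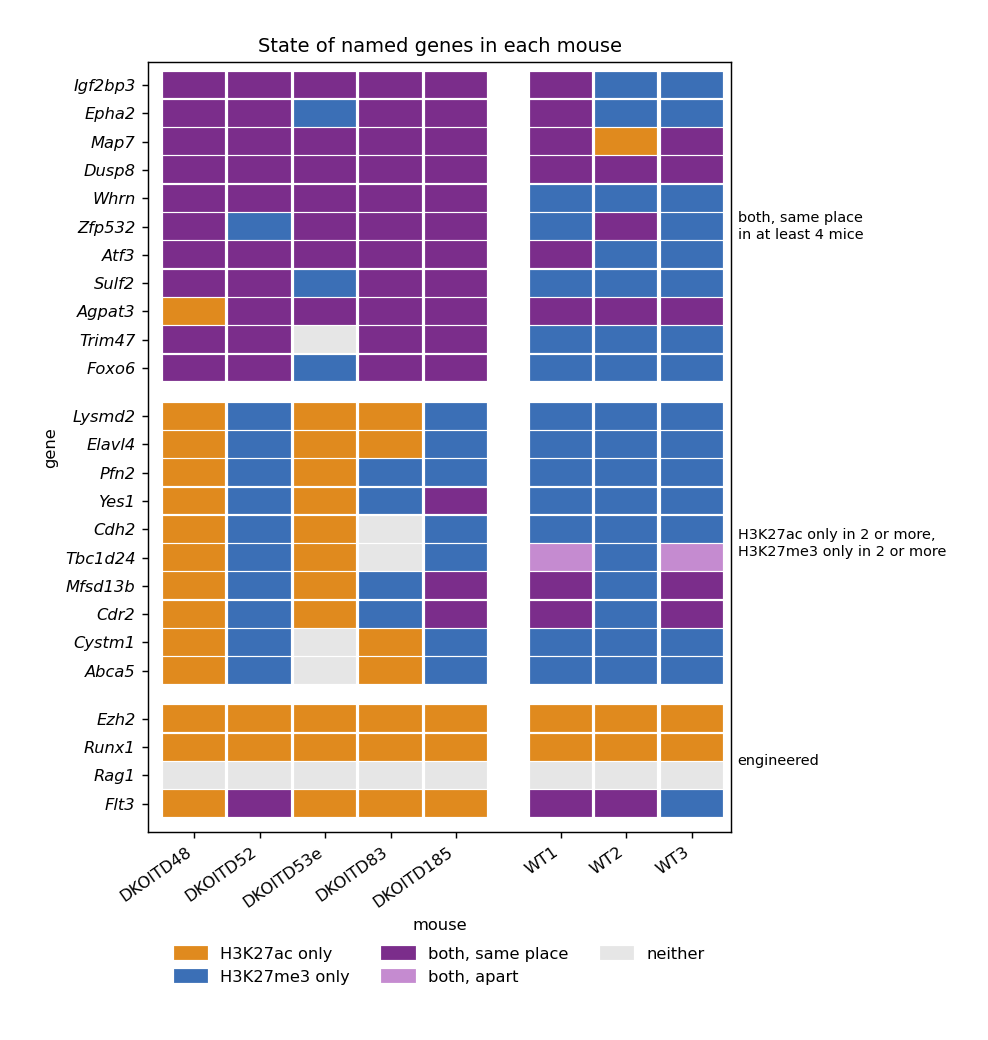
State of each named gene (rows) in each mouse (columns, 5 DKOITD mice left of 3 WT mice), by colour. Purple runs through at least 4 of 5 DKOITD mice in the upper block, while in the middle block DKOITD48 is always H3K27ac only and DKOITD52 always H3K27me3 only.

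The lists of known genes were read against the shares of all genes common to the 5 DKOITD mice, 28.9% for H3K27ac only, 3.58% for H3K27me3 only and 35.1% for neither. Developmental transcription factors outside the Hox clusters were H3K27me3 only in all 5 mice at 43 of 54 genes, with 43 to 54 per mouse. None of the 54 was marked by H3K27ac in its 1 kb windows in any DKOITD mouse. Among the 43 were Pax2, Pax6, Sox1 and Sox2. HoxB, HoxC and HoxD genes were H3K27me3 only in all 5 at 23 of 28, and Hoxb4, a homeobox gene used by blood stem cells, was the exception with H3K27ac only in all 8 mice. It had 1208, 1291, 354, 1049 and 1216 bp of H3K27ac in DKOITD mice, against 646, 500 and 1119 bp in WT mice. The median H3K27me3 in the better window, averaged over the mice, was 1750 bp for the developmental factors and 1826 bp for these Hox genes, against 0 bp over all genes.

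The HoxA cluster carried both marks in places. Hoxa9, Hoxa11 and Hoxa13 of 11 genes were H3K27me3 only in all 5 mice, and none was H3K27ac only in all 5. Hoxa9, a homeobox gene of blood progenitors and many leukaemias, had 2001, 2001, 1374, 1155 and 2001 bp of H3K27me3 and no H3K27ac in its windows in the DKOITD mice, whereas WT1 and WT2 also had 407 and 839 bp of H3K27ac. Hoxa7 had both at the same place in DKOITD48, DKOITD52 and DKOITD185 and in all 3 WT mice. Hoxa4 had 1304, 1193, 862, 1031 and 1404 bp of H3K27ac in DKOITD mice, against 920, 0 and 0 bp in WT mice, with both at the same place in DKOITD53e. Components of the WNT, NOTCH, Hedgehog and BMP pathways were H3K27me3 only in all 5 at 11 of 28, Dll1, Jag2, Wnt1 and Wnt3 among them, and H3K27ac only in all 5 at Notch2 and Notch4.

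Active housekeeping genes were at the other end. Of 20 such genes 16 were H3K27ac only in all 5 mice, and none was marked by H3K27me3 in its 1 kb windows in any DKOITD mouse. Of 24 Polycomb and H3K27 enzyme genes, 14 were H3K27ac only in all 5, including the Polycomb repressive complex 2 genes Ezh1, Ezh2, Eed and Suz12. Cbx8, a chromodomain reader of H3K27me3, had both marks at the same place in DKOITD48, DKOITD52 and DKOITD185, both apart in DKOITD83 and in the 3 WT mice, and H3K27me3 only in DKOITD53e. Bmi1, a subunit of Polycomb repressive complex 1, had 1486 to 1820 bp of H3K27ac in DKOITD mice, against 1299 to 1608 bp in WT mice, and shared 356 and 467 bp with H3K27me3 in DKOITD52 and DKOITD185, against 419, 523 and 167 bp in WT1, WT2 and WT3. Commd3 and a predicted gene share that window.

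Among feedback genes of signalling, same-place calls followed the mice with many such calls over all genes (81, 344, 18, 35 and 379 in DKOITD48, DKOITD52, DKOITD53e, DKOITD83 and DKOITD185). Of 15 ERK feedback genes, 7 had both at the same place in DKOITD52 and 5 in DKOITD185, but none in DKOITD48, DKOITD53e or DKOITD83. Fos, an AP-1 subunit induced by ERK, had 2001, 2001, 2001, 1713 and 2001 bp of H3K27ac in DKOITD mice, and 622 and 431 bp of H3K27me3 in DKOITD52 and DKOITD185 alone. Dusp6, a phosphatase of ERK, had 0, 1619, 0, 0 and 1489 bp of H3K27ac and 1272, 823, 289, 1127 and 693 bp of H3K27me3 in the DKOITD mice, against 2001 and 0 bp in each WT mouse. Spry2, a Sprouty inhibitor, had 0, 632, 0, 0 and 903 bp of H3K27ac and 2001, 2001, 0, 716 and 2001 bp of H3K27me3 in DKOITD mice, again against 2001 and 0 bp in each WT mouse. For both genes the H3K27ac values of DKOITD and WT mice did not overlap. Dusp1, Dusp2, Spred1 and Spred2 were H3K27ac only in all 5. Among 12 STAT5 and cytokine feedback genes, Socs1, Pim1, Pim2 and Bcl2 were H3K27ac only in all 5. The CDK inhibitor genes divided, with Cdkn1b and Cdkn2d H3K27ac only and Cdkn2b H3K27me3 only in all 5.

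**Figure D5:**
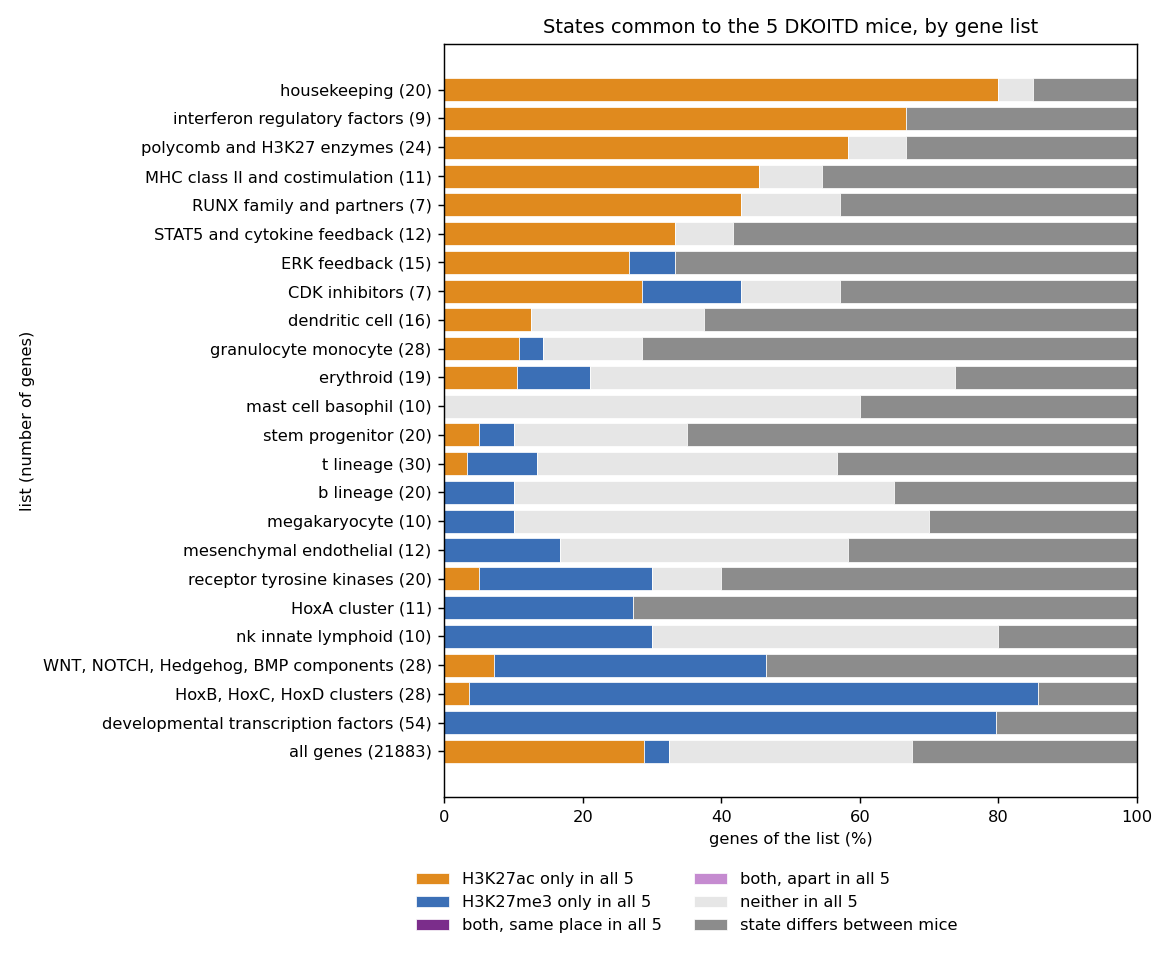
Share of each list's genes (%) whose state was common to the 5 DKOITD mice, with all 21883 genes in the bottom row and the number of genes in brackets. Housekeeping genes are H3K27ac only in 16 of 20, developmental transcription factors H3K27me3 only in 43 of 54, and many lineage lists are mostly neither or differ between mice.

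Cell type markers were used to describe the marrow. Of 28 granulocyte and monocyte genes, Cebpa, Spi1 and Csf2ra were H3K27ac only in all 5 DKOITD mice (10.7%, against 28.9% of all genes). Per mouse 8 to 20 were so, the highest count in DKOITD52, where all genes gave 33.3% to 42.1% per mouse. Fcgr3 was H3K27me3 only in all 5. S100a8 was H3K27ac only in all 3 WT mice, but H3K27me3 only in DKOITD52 and DKOITD185 and without either mark in the other 3 DKOITD mice. S100a9, of the same list, was likewise H3K27ac only in all 3 WT mice, but differed from S100a8 in DKOITD52. There it was H3K27ac only, with 2001 bp. It was H3K27me3 only in DKOITD185, with 380 bp, and had neither mark in the other 3 DKOITD mice. Spi1, which encodes the myeloid regulator PU.1, had 1503, 2001, 1435, 888 and 2001 bp, against 2001 bp in each WT mouse. The granule protein genes Elane, Prtn3 and Camp had neither mark in any DKOITD mouse, and Mpo was H3K27ac only in DKOITD52 alone. Gfi1, a transcriptional repressor needed for granulocyte development, had 2001, 2001, 0, 411 and 2001 bp of H3K27me3 and 0, 0, 0, 0 and 1846 bp of H3K27ac in DKOITD mice, against 0, 0 and 1539 bp and 2001 bp in each WT mouse. Of 16 dendritic cell genes, Bst2 and Xcr1 were H3K27ac only in all 5 (12.5%, against 28.9% of all genes), and Zbtb46, Siglech, Ccr7 and Runx2 had neither mark in all 5. Zbtb46 did have H3K27ac within 5 kb of an end in every mouse, although none in the 1 kb windows. It was 535 to 2045 bp in DKOITD mice, against 1509 to 2179 bp in WT mice. Irf8, a regulator of monocytes and dendritic cells, was H3K27ac only in 4 DKOITD mice, with 1484, 1697, 0, 692 and 1501 bp, and H3K27me3 only in the 3 WT mice.

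Of 11 genes of antigen presentation by MHC class II and costimulation, H2-Aa, H2-Eb1, H2-DMa, H2-DMb1 and Cd74 were H3K27ac only in all 5 DKOITD mice. H2-Aa, a class II chain, had 2001, 2001, 2001, 989 and 2001 bp of H3K27ac in DKOITD mice and 0 bp in each WT mouse, so the groups did not overlap. Interferon regulatory factors were H3K27ac only in all 5 at Irf1, Irf2, Irf3, Irf5, Irf7 and Irf9 of 9. Irf5, an activator of inflammatory genes, had 966, 967, 856, 930 and 2001 bp of H3K27ac in DKOITD mice and 0 bp in WT mice, where it had 977, 841 and 1264 bp of H3K27me3. Irf5 shares a window with Tnpo3.

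Lymphoid lists held few genes that were H3K27ac only in all 5 DKOITD mice. Of 30 T-lineage genes, Cd3d, part of the T-cell receptor complex, was H3K27ac only in all 5 DKOITD mice. The T-cell regulators Bcl11b and Tcf7 and the NOTCH target Hes1 were H3K27me3 only in all 5, and 13 genes (43.3%, against 35.1% of all genes) had neither mark in all 5. Of 20 B-lineage genes, none was H3K27ac only in all 5, Pax5 and Ebf1 were H3K27me3 only in all 5, and 11 (55.0%) had neither. Of 10 natural killer and innate lymphoid genes, Eomes, Tbx21 and Zbtb16 were H3K27me3 only in all 5. Of 20 stem and progenitor genes, Etv6 was H3K27ac only and Hoxa9 H3K27me3 only in all 5. Kit, the stem cell factor receptor on which WT marrow was enriched, had 0, 823, 0, 324 and 2001 bp of H3K27me3 and no H3K27ac in the DKOITD mice, against no H3K27me3 and 942, 937 and 824 bp of H3K27ac in WT mice.

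Of 19 erythroid genes 10 had neither mark in all 5 DKOITD mice, Gata1 among them, and Tfrc, the transferrin receptor gene, was H3K27ac only in all 5. Of 10 megakaryocyte genes none was H3K27ac only in all 5, and likewise of 10 mast cell and basophil genes. Of 12 mesenchymal and endothelial genes none was H3K27ac only in any DKOITD mouse, and Cxcl12 and Pdgfra were H3K27me3 only in all 5. Of 20 receptor tyrosine kinase genes, Insr was H3K27ac only and Pdgfra, Flt1, Fgfr2 and Fgfr3 were H3K27me3 only in all 5. Of 7 genes of the RUNX family and its partners, Runx1, Cbfb and Cbfa2t2 were H3K27ac only in all 5. How far the makeup of the marrow set these calls was not tested.

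The states also differed in gene size, which the calls did not use directly. The median gene was 22.8 kb long for genes H3K27ac only in all 5 DKOITD mice, 19.5 kb for H3K27me3 only, 8.78 kb for neither and 17.2 kb over all genes. Genes with both marks at the same place in at least 2 DKOITD mice were longer, with a median of 41.7 kb and quartiles of 12.2 and 114 kb. The medians per DKOITD mouse were 33.2 to 81.8 kb for same place, 21.0 to 22.8 kb for H3K27ac only and 20.3 to 27.5 kb for H3K27me3 only, so same-place genes had a higher median than either single-mark state in 5 of 5 mice. This is a description over genes, and short genes have overlapping windows at their ends.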

How the data were processed

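H3K27ac and H3K27me3 chromatin immunoprecipitation sequencing (ChIP-seq) peak lists of 5 DKOITD and 3 WT mice were used. Per the submitters' processing notes, the tools included Bowtie2 2.2.5 and MACS2 2.0.10 and the build was mm10. Broad peaks were called by the authors library by library, per the file headers, at a q-value limit of 0.05 and with at most 1 fragment kept at a position, all DKOITD libraries against the DKOITD48 input and all WT libraries against the WT1 input. Drosophila chromatin added to the samples was not used, so the lists carry no absolute level. The deposited files give for each peak the pileup (signal, or fragment coverage), the −log10 of the p-value and of the q-value, and the fold enrichment, a ratio of signal to local background. These are the authors' values for each peak and served to filter or rank peaks within a list.

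Peaks of a library did not overlap each other, so merging changed none. Genes came from a RefSeq table of GRCm38.p6 without strand. Windows reached 1 kb either side of both gene ends, so a mark may lie at the 3′ end. A gene was marked when peaks covered at least 200 bp of the better covered window, and both marks were at the same place when they shared at least 1 bp in the windows. Fragments per library and peak numbers are given with the results, and they set which peaks could be called. Shares were compared by exact two-sided permutation tests over 56 assignments of 8 mice, where the smallest p is 0.0357, and Benjamini-Hochberg adjustment over the 5 states gave 0.536 to 0.643. Both libraries of a DKOITD mouse came from the same animal, which is the pairing behind the mouse block. The scripts were tested on simulated peaks. Python 3.11.15, numpy 2.4.6, pandas 2.3.3, scipy 1.17.1 and matplotlib 3.10.9 were used.

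The members and the 23 gene lists (403 symbols, all found in the table) were chosen with earlier results of these data known, and lists are described by counts without a test. Named genes were the 10 widest of each single-mark state common to the 5 mice, all with both marks at the same place in at least 4, 10 of the genes with opposite marks in at least 2 mice each (those with most mice in either state), engineered genes, up to 4 examples per list and class in list order and the 5 longest shared regions. Other named genes were chosen after their values were seen. Promoter sequence and windows at gene starts only were not used here. The cell line samples were not analysed here.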

Additional observations from a re-analysis of the deposited data

Results flagged for a closer look

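Of 20 values checked over the 5 DKOITD mice for 1 mouse far from the others, 1 stood out, and chance alone gives about 1 in 20. In DKOITD53e, 64.9% of shared stretches were a whole H3K27ac peak lying inside an H3K27me3 peak, against 37.3% to 42.6% in the other 4 DKOITD mice. Its distance to the nearest of them was 0.806 of the whole range, above the critical value of 0.71. The share rests on 37 shared stretches in DKOITD53e, the fewest of the 8 mice. It was computed with all peaks, those of high background among them. In DKOITD53e 37 H3K27ac peaks touched H3K27me3, and 24 did so with peaks of high background left out. These counts were 59 and 51 in DKOITD83 and 550 and 543 in DKOITD185.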

How the results depend on the processing

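Leaving out 1 mouse reversed 5 values, moved 7 past the set margin and left 89 within it; the other settings reversed 17, moved 19 and left 70. With peaks of −log10 q of at least 5, DKOITD minus WT shares were 1.86 percentage points for H3K27me3 only, 0.0363 for same place, 0.0445 for apart and -0.366 for neither. The overlap difference was then -4.18% of H3K27me3 territory, H3K27ac minus H3K27me3 territory 3.24 Mb, and shared length 9.52 times the product of the territories, in place of 2.47, which was 0.934 without peaks of high background and 0.709 without DKOITD48, DKOITD53e and DKOITD83. Common calls fell to 3964 genes for H3K27ac only, 82 for H3K27me3 only, and 0 for same place, apart and genes of opposite marks, with 11538 for neither. At equal peak numbers (8825 and 1891), differences were 0.701 for H3K27ac only and 0.028 for same place, territory 2.75 Mb, 1 gene was common as same place and 4204 genes differed. Genes apart numbered 13 at a minimum of 1 bp, 4 at 500 bp and 42 over whole genes; opposite marks numbered 3 at 500 bp, and same place 3 with 200 shared bp. Without peaks of high background, chosen after the data were seen, overlap differences were -0.211% of H3K27me3 and -0.18% of H3K27ac territory. Without DKOITD48, DKOITD53e and DKOITD83 together, differences were 1.74, 0.967, 0.467, 0.316 and -3.49 points for H3K27ac only, H3K27me3 only, same place, apart and neither. The overlap difference was then -0.264% of H3K27me3 territory. In both remaining mice, 3227, 192 and 174 genes were H3K27me3 only, same place and apart, and 1872 differed. Opposite marks were at 0 genes by definition, as they require at least 2 mice in each of the opposite states. With fewer mice, common counts cannot fall and the count of differing genes cannot rise. Other causes of the changes in this section were not tested.

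Leaving out 1 mouse at a time gave -2.42 to -0.213 points for H3K27ac only, -7.34 to -4.18 for H3K27me3 only, -0.652 to -0.227 for same place, -0.717 to -0.267 for apart and 4.94 to 11.1 for neither. Overlap differences ran over 0.103 to 0.399% of H3K27me3 and -0.0588 to 0.109% of H3K27ac territory, the territory difference over -5.13 to 0.999 Mb, and shared length over 1.82 to 2.93 times the product. Common counts ran over 6331 to 6904 for H3K27ac only, 792 to 1075 for H3K27me3 only, 5 to 9 for same place, 9 to 13 for apart, 7696 to 8351 for neither, 6188 to 6980 for differing genes and 1 to 8 for opposite marks, the 1 without DKOITD52. Leaving out a mouse cannot lower the common counts of a state, and it cannot raise the counts of differing genes or opposite marks. With the mouse as replicate block the territory difference was -2.53 Mb, with an exact sign-flip p of 0.688. A window at gene starts alone and the promoter CpG comparison were not run. Peak lists limit all calls: a mark below the calling threshold counts as none.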

Other observations

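Genes of chromosome X carried fewer single-mark calls than autosomal genes in all 8 mice. H3K27ac only was called at 24.0%, 26.5%, 14.6%, 18.0% and 27.3% of 966 X-linked genes in DKOITD48, DKOITD52, DKOITD53e, DKOITD83 and DKOITD185, against 42.3%, 42.2%, 34.5%, 35.5% and 43.3% of 20661 autosomal genes. H3K27me3 only was called at 1.66%, 10.8%, 0.725%, 2.9% and 10.1% of X-linked genes, against 6.31%, 17.3%, 4.64%, 7.48% and 17.6% of autosomal genes. Both shares were lower on X in 5 of 5 DKOITD mice. The same held in WT1, WT2 and WT3, with 23.6%, 21.9% and 22.5% of X-linked genes H3K27ac only, against 42.7%, 39.8% and 40.9% of autosomal genes. H3K27me3 only was called in WT mice at 16.6%, 8.9% and 13.4% of X-linked genes, against 17.4%, 14.6% and 16.9% of autosomal genes. Both marks at the same place were called at 1, 3, 0, 0 and 2 X-linked genes in the DKOITD mice, against 18, 9 and 15 in WT1, WT2 and WT3. In DKOITD mice these were 0.104%, 0.311%, 0%, 0% and 0.207% of X-linked genes, against 0.387%, 1.65%, 0.0871%, 0.169% and 1.82% of autosomal genes. In WT mice they were 1.86%, 0.932% and 1.55%, against 1.52%, 0.682% and 1.36%. The X-linked counts did not overlap between the groups, but DKOITD48, DKOITD53e and DKOITD83 had only 81, 18 and 35 such genes in all. H3K27ac was called at 3 or 4 Y-linked genes in 4 DKOITD mice and at none in DKOITD83 and the WT mice. The sex of the animals is not given in the labels used here, so at X-linked genes it cannot be told apart from genotype and cell preparation.

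Neighbouring genes often shared the state. Of genes H3K27ac only in all 5 DKOITD mice, 35.4% of those sharing no window with the next gene had a next gene of the same class, where 28.9% of all genes are in it. For H3K27me3 only the share was 10.5%, where 3.58% of all genes are in the class, and for neither it was 62.7%, where 35.1% are. These are descriptions over genes, which are not replicates.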
